A study of Mus musculus with 77 samples.

Results

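The tRNAs for leucine, serine and selenocysteine are described here locus by locus in mouse liver, VsWAT, GAS and plasma small RNA. All rows of the mRNA and small RNA count tables whose identifier holds a tRNA locus ending in Leu, Ser or SeC were taken. These were 56 of the 435 tRNA loci and of 55273 rows in all, made up of 30 Leu, 24 Ser and 2 SeC loci with 11 anticodons. One of the 56, chrM.tRNA1-LeuTAA, lies on the mitochondrial chromosome, and the mitochondrial leucine tRNA is not of the long-arm type.

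Most tRNAs fold into a cloverleaf with a short variable loop between the anticodon arm and the T arm. In nuclear-encoded tRNAs of animals, leucine, serine and selenocysteine tRNAs instead carry a long variable arm that forms a stem of its own, and they are called type II tRNAs. Seryl-tRNA synthetase uses the long arm to recognise its tRNAs, and it also charges the selenocysteine tRNA with serine before that serine is converted to selenocysteine. The leucine synthetase reads other parts of its tRNAs, and tRNA fragments are an abundant class of small RNA in tissues and in blood.

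Male mice, 12 weeks old, received either HFD (high in fat) or LFD (low in fat) as their diet over 2 weeks. All groups share 1 strain: FVB.129P2 mice that bear the allele Cyp3a13tm1Ahs, the deletion named Del(5Cyp3a57-Cyp3a59)1Ahs and, as a human drug-metabolising enzyme, the transgene Tg(APOE-CYP3A4)A1Ahs, so no wild-type group enters any comparison. The compound behind the pull-down and its protocol are not given in the sources used here. Small RNA libraries were pull-down HFD and LFD and input HFD and LFD of liver (5 pull-down and 6 input libraries), VsWAT (6 and 6), GAS (6 and 6) and plasma (4 and 4). The names VsWAT and GAS stand as the labels give them. Libraries of mRNA came as pull-down and input from liver (6 and 6) and kidney (5 and 5). Nothing in the labels says that replicates are separate animals, so p-values measure the spread between these libraries, which may be technical.

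Assigned counts per small RNA library ranged from 221875 to 3608065, with the lowest totals in plasma (221875 to 646964 in pull-down and 327144 to 828030 in input). The tissue labels were checked against 8 markers each. Hepatocyte markers summed to 42341 to 53369 CPM (assigned counts scaled to a common library total) in liver pull-down and 26111 to 55502 CPM in liver input, adipocyte markers to 15354 to 22640 CPM in VsWAT pull-down and 6664 to 8639 CPM in VsWAT input, and skeletal muscle markers to 19113 to 34614 CPM in GAS pull-down and 14162 to 25642 CPM in GAS input. Plasma held erythrocyte and platelet markers at 12083 to 26440 CPM in pull-down and 20629 to 43333 CPM in input. Hepatocyte markers were also present in VsWAT, at 58.8 to 2323 CPM in pull-down and 166 to 1516 CPM in input, and in plasma, at 139 to 16944 CPM in pull-down and 3.60 to 128 CPM in input. Their part in the VsWAT and plasma results was not tested. Plasma inputs HFD 2 and LFD 1 stood apart from the other plasma inputs and resembled each other: their log2(CPM + 1) values correlated at r = 0.949 over 509 features, against 0.598 to 0.768 for the other pairs of plasma inputs. VsWAT inputs HFD 1 and 2 differed by little more than sampling noise (chi-square per degree of freedom 1.53, where the next lowest of 38 pairs had 3.65). In bulk samples, fewer cells of a type and less RNA per cell cannot be told apart.

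Of the 56 loci, 13 had no count in any of the 43 small RNA libraries, 15 had 1 to 99 counts in all, and 28 had 100 or more, of which 17 had 1000 or more. The 13 silent rows were 7 Leu, 5 Ser and 1 SeC loci, among them chr5.tRNA13-SeCTCA and chrM.tRNA1-LeuTAA. The small RNA libraries together held 227791 counts on the 56 loci, and 8 loci held 88.1% of those in the inputs: chr7.tRNA88-SeCTCA, chr7.tRNA863-LeuTAG, chr10.tRNA1326-LeuTAA, chr19.tRNA713-SerGCT, chr2.tRNA1509-SerGCT, chr11.tRNA401-LeuTAG, chr10.tRNA1105-SerTGA and chr10.tRNA698-SerCGA. Genes of one anticodon are near-identical in sequence, and how reads that match several of them were counted is not given in the sources used here, so a count at one locus may belong to its copies. Sums over all loci of an anticodon are therefore given beside single loci.

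RefSeq annotation of the GRCm38.p6 assembly, the same build as the mm10 named in the submitters' processing notes, lists 47 nuclear Leu and Ser tRNA genes. Of these, 46 are at least 80 bases long, with a median of 82, against 18 of 355 other tRNA genes with a median of 72. The 4 LeuCAA genes, which carry an intron, are the longest at 105 to 107 bases, and the single SerGGA gene, at 73 bases, is the one without the length of a long arm. Its row, chr11.tRNA832-SerGGA, held 3 counts in all small RNA libraries. A row could be matched to 1 RefSeq gene by chromosome and anticodon for 23 of the 56 loci. The leucine locus chr10.tRNA1326-LeuTAA lies at chr10:12922571-12922653 within the lncRNA gene B230208H11Rik, and the serine locus chr19.tRNA713-SerGCT lies at chr19:5038304-5038385 within the lncRNA gene Gm30581. Some loci of different anticodons lie close together, since chr11.tRNA400-SerCGA and chr11.tRNA401-LeuTAG are 13.2 kb apart and chr14.tRNA189-LeuAAG and chr14.tRNA709-LeuTAG 18.9 kb apart. Chromosome 13 holds 19 of the 56 loci.

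The first question was how far these tRNAs are recovered in the pull-down of each tissue. In liver and GAS all 3 isotypes were far lower in pull-down than in input, in VsWAT they were lower with the exception of several loci, most of them leucine loci, and in plasma pull-down and input overlapped for all 3. In liver the Leu sum was 107 to 202 CPM in pull-down (median 189, n = 5) and 1833 to 4613 CPM in input (median 2835, n = 6). The Ser sum was 43.1 to 70.2 CPM in liver pull-down and 503 to 1288 CPM in liver input, and the SeC sum 302 to 697 CPM in pull-down and 1265 to 3797 CPM in input. No pull-down library of liver reached the lowest liver input for any of the 3 sums.

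**Figure D1:**
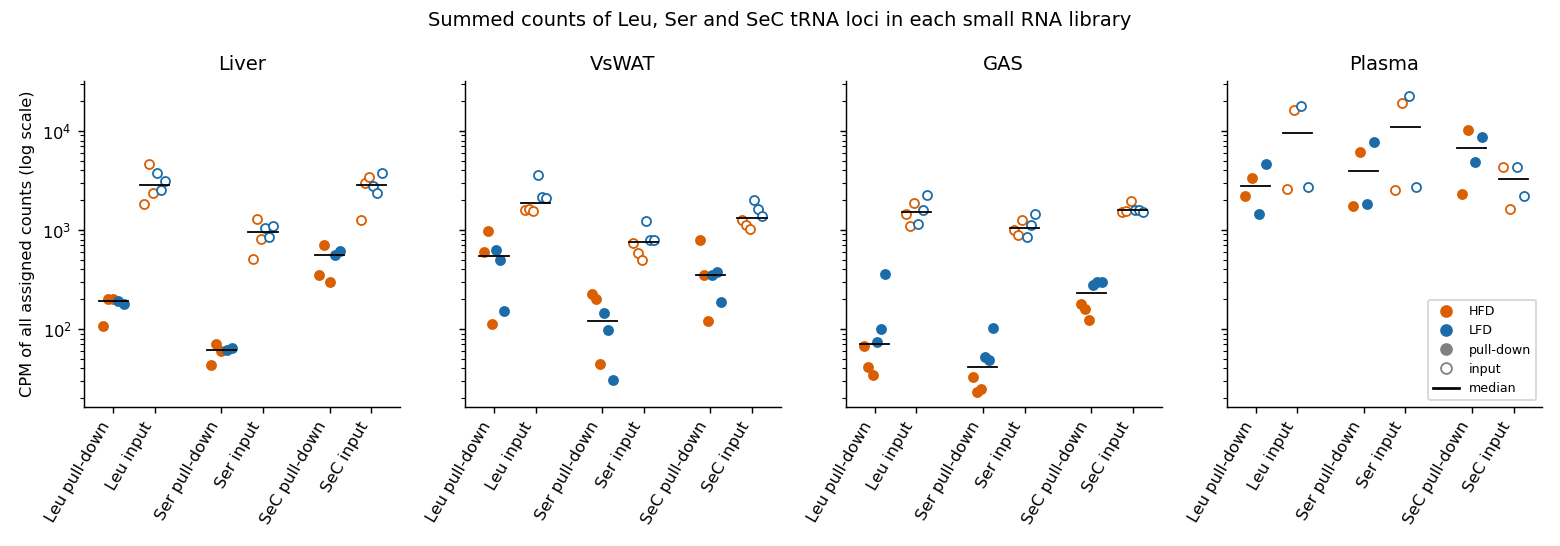
Summed CPM of all Leu, Ser and SeC loci in each small RNA library on a log axis, by tissue, with pull-down libraries (filled) left of input libraries (open), HFD in orange, LFD in blue and the median as a bar. The liver and GAS groups do not overlap for any isotype, the lowest VsWAT pull-downs are the replicates numbered 3 of both diets, and the plasma inputs fall into 2 high and 2 low libraries for Leu and Ser.

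Each locus was tested across the whole table of features with edgeR's quasi-likelihood test after TMM scaling, which sets libraries to a common level from the bulk of their features, and p-values were adjusted over all features by Benjamini and Hochberg. A change was called at an adjusted p under 0.05, and changes are given as log2 differences ± SE. Of the 56 loci, 25 passed the filter on low counts in liver, and 25 of these were lower in pull-down. In that comparison 28.4% of all 8401 features tested were called lower and 27.1% higher. The median change of the 25 loci was -4.72, against 0.10 over all features and -3.73 over the 103 other tRNA loci tested, of which 99 were lower and 1 higher. Most other tRNA loci tested in liver were thus lower in pull-down as well. Of the 25 loci 11 had fewer than 10 counts in every liver pull-down library and passed the filter through the inputs alone, as did 2 of 26 tested in VsWAT, 7 of 24 in GAS and 1 of 22 in plasma. A lower call at those loci follows from the filter, so the counts and medians over tested loci describe them and support nothing further. Of the other 14 loci in liver, 14 were lower.

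Selenocysteine came from 1 locus, chr7.tRNA88-SeCTCA, whose tRNA decodes UGA codons in selenoprotein mRNAs. Its liver pull-down values were 353, 697 and 302 CPM on HFD and 558 and 611 CPM on LFD, and its liver input values were 1265, 2996 and 3462 CPM on HFD and 2750, 2378 and 3797 CPM on LFD. All pull-down values lay below the lowest input. The change was -3.58 ± 0.37 in liver (adjusted p = 6e-07). In GAS it had 122 to 297 CPM in pull-down (median 229) and 1503 to 1976 CPM in input (median 1576), with a change of -3.89 ± 0.27 (adjusted p = 1.04e-10). Again no pull-down library reached an input library. VsWAT gave 119 to 788 CPM in pull-down (median 349.6) and 1027 to 2003 CPM in input (median 1320), a change of -2.56 ± 0.42 (adjusted p = 0.000444). The VsWAT groups did not overlap either.

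The liver estimate of the SeC locus was smaller in size than those of most Leu and Ser loci, and its share of the tRNA counts moved the other way. It made up 15.4% to 17.6% of all counts on nuclear tRNA loci in liver pull-down and 8.65% to 15.5% in liver input. In VsWAT that share was 4.54% to 8.12% in pull-down and 2.84% to 4.07% in input, which did not overlap. In GAS it was 4.62% to 12.1% in pull-down and 3.60% to 8.49% in input, which overlapped. So the locus was lower in pull-down per assigned count and higher, on average, per tRNA count in all 3 tissues. These shares were not tested.

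The estimates of the leucine loci varied between and within anticodons, and no test between anticodons was run. They ran in liver from -7.07 to -3.90 over the LeuAAG loci and from -5.26 to -3.25 over the LeuCAA loci. All LeuAAG loci tested, and chr13.tRNA85-LeuCAA at -5.26, had fewer than 10 counts in every liver pull-down library. They passed the filter through the inputs alone, so these ranges describe the loci and support nothing further. In liver the largest decreases were those of chr11.tRNA401-LeuTAG, chr13.tRNA63-LeuAAG and chr14.tRNA709-LeuTAG, which decode CUN leucine codons. Of these, chr13.tRNA63-LeuAAG and chr14.tRNA709-LeuTAG had fewer than 10 counts in every liver pull-down library, so their lower calls follow from the filter. The locus chr11.tRNA401-LeuTAG had 3.49 to 10.1 CPM in liver pull-down (median 8.51) and 273 to 739 CPM in liver input (median 487), with a change of -7.11 ± 0.36 (adjusted p = 2.56e-11). The AAG locus chr13.tRNA63-LeuAAG had 0 to 3.65 CPM in pull-down and 46.5 to 160.2 CPM in input, with a change of -7.07 ± 0.41 (adjusted p = 1.44e-09). For both, every pull-down library lay below every input library. The UUA-decoding locus chr10.tRNA1326-LeuTAA had 26.1 to 62.7 CPM in pull-down and 726 to 2114 CPM in input (-5.90 ± 0.37, adjusted p = 7.26e-10). Smaller decreases were seen at some of the CAG and CAA loci, with -2.66 ± 0.28 for chr8.tRNA1013-LeuCAG and -3.25 ± 0.33 for chr13.tRNA65-LeuCAA, both named after their values were seen. Summed over all loci of an anticodon, the liver changes were -5.91 ± 0.37 for LeuTAG, -5.90 ± 0.36 for LeuTAA, -5.84 ± 0.31 for LeuAAG, -3.66 ± 0.35 for LeuCAA and -3.15 ± 0.28 for LeuCAG.

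Of the serine loci, chr19.tRNA713-SerGCT, which decodes AGC and AGU, changed most in liver. It had 2.70 to 8.51 CPM in pull-down (median 5.23) and 127 to 436 CPM in input (median 329), and the change was -6.91 ± 0.41 (adjusted p = 2.18e-09). A second locus of that anticodon, chr2.tRNA1509-SerGCT, changed by -5.65 ± 0.31 (adjusted p = 5.93e-11) and the UCG-decoding chr11.tRNA400-SerCGA by -5.99 ± 0.38 (adjusted p = 2.9e-09). At chr11.tRNA400-SerCGA every liver pull-down library had fewer than 10 counts, so its lower call follows from the filter. Another UCG-decoding locus, chr10.tRNA698-SerCGA, changed by -4.72 ± 0.45, and the UCA-decoding chr10.tRNA1105-SerTGA by -4.35 ± 0.38. By anticodon the liver changes were -5.95 ± 0.32 for SerGCT, -4.74 ± 0.36 for SerCGA and -4.36 ± 0.38 for SerTGA. All 9 anticodon sums tested were lower in liver pull-down, where 28% of the features of that table were called lower.

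**Figure D2:**
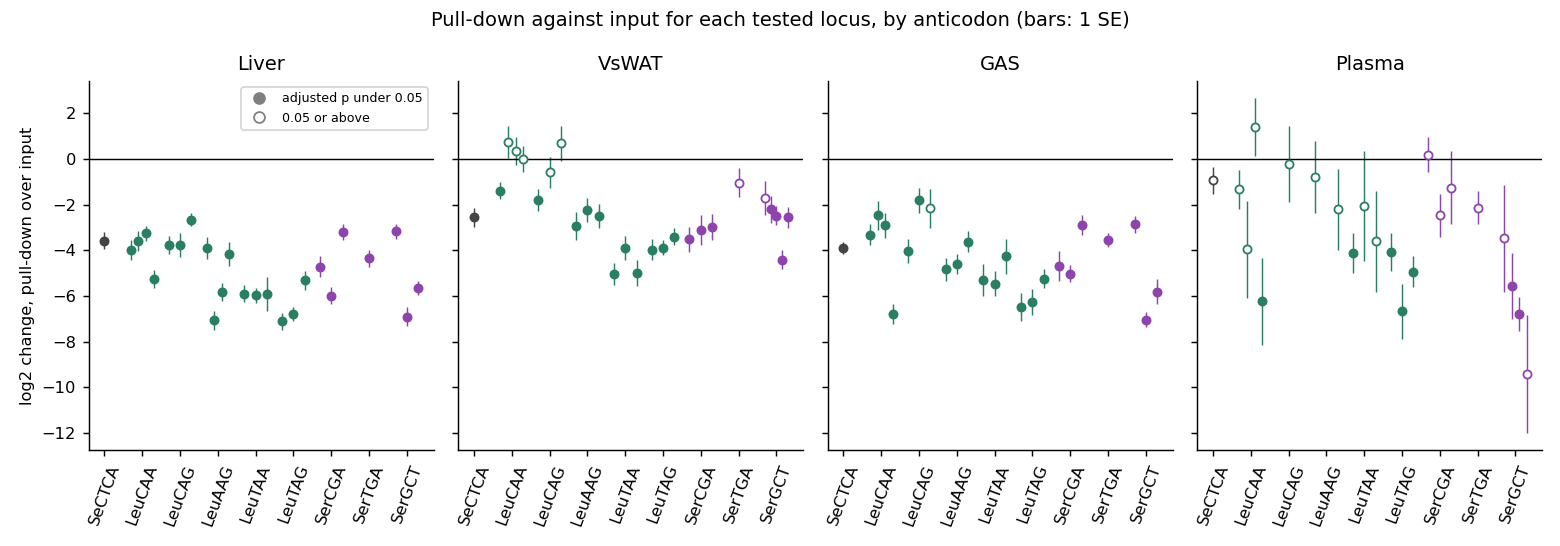
Log2 change of pull-down over input with its SE for every tested locus, by anticodon and tissue; filled points passed an adjusted p under 0.05 and open points did not. All liver points lie below 0, while 3 of 4 LeuCAA loci in VsWAT lie at 0 or above with open points.

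In GAS, where 26.5% of the 9797 features tested were called lower, 23 of the 24 loci tested were lower in pull-down and 0 higher. Their median change was -4.42, against 0.06 over all features and -3.57 over 93 other tRNA loci, of which 87 were lower and 1 higher. The locus that missed the threshold was chr8.tRNA1013-LeuCAG, with 0 to 34.7 CPM in pull-down and 12.4 to 19.4 CPM in input (-2.17 ± 0.84, adjusted p = 0.0508). The AGC-decoding chr19.tRNA713-SerGCT changed most in GAS: it had 2.01 to 15.0 CPM in GAS pull-down and 415 to 875 CPM in GAS input, a change of -7.04 ± 0.33 (adjusted p = 4.66e-13). The LeuTAG loci were lower too, with -6.48 ± 0.59 for chr11.tRNA401-LeuTAG, -6.25 ± 0.58 for chr14.tRNA709-LeuTAG and -5.24 ± 0.42 for chr7.tRNA863-LeuTAG. By anticodon, GAS ran from -6.48 ± 0.34 for SerGCT to -3.29 ± 0.53 for LeuCAA and -2.72 ± 0.70 for LeuCAG, and 9 of 9 sums were lower (26.3% of the features of that table were called lower). One library, GAS pull-down LFD 3, held 360.2 CPM of Leu loci where the other 5 held 34.2 to 99.7 CPM, and leaving it out did not lower the number of loci called.

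VsWAT showed a split. Of 26 loci tested 19 were lower in pull-down and 0 higher, where 23.2% of 11339 features were called lower, and the median change of the 26 was -2.52, against 0.01 over all features and -1.48 over 141 other tRNA loci (72 lower, 4 higher). Loci for UUA and AGC codons were among those lower: chr10.tRNA1326-LeuTAA had 16.7 to 94.0 CPM in VsWAT pull-down and 717 to 2106 CPM in VsWAT input (-5.05 ± 0.48, adjusted p = 7.62e-06), and chr19.tRNA713-SerGCT 10.9 to 49.3 CPM in pull-down and 274 to 568 CPM in input (-4.42 ± 0.41, adjusted p = 5.95e-06). Pull-down and input of these 2 loci did not overlap. The 7 loci that missed the threshold were 3 of 4 LeuCAA loci, 2 LeuCAG loci, chr10.tRNA1105-SerTGA and chr11.tRNA1821-SerGCT.

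The LeuCAA loci, whose tRNA decodes UUG and is spliced from an intron-containing precursor, varied widely between VsWAT pull-down libraries. For chr13.tRNA85-LeuCAA the pull-down values were 41.0, 159 and 9.56 CPM on HFD and 58.9, 62.5 and 21.7 CPM on LFD, and the input values were 29.2, 34.0 and 23.4 CPM on HFD and 47.7, 48.4 and 36.6 CPM on LFD. The replicates numbered 3 lay below all inputs and HFD 2 far above them, and the change was 0.01 ± 0.57 (adjusted p = 0.991). Pull-down HFD 3 was again the lowest and HFD 2 the highest library at chr13.tRNA1010-LeuCAA, with 1.91 to 119 CPM in pull-down (median 31.0) and 9.75 to 23.4 CPM in input (median 17.9; change 0.73 ± 0.70, adjusted p = 0.426), and also at chr13.tRNA65-LeuCAA, with 12.0 to 281 CPM in pull-down (median 135) and 55.3 to 95.5 CPM in input (median 62.8; change 0.34 ± 0.61, adjusted p = 0.683). At these loci the groups overlapped. The fourth, chr11.tRNA1911-LeuCAA, was lower, with 8.14 to 45.6 CPM in pull-down and 36.5 to 68.5 CPM in input (-1.38 ± 0.39, adjusted p = 0.0136). Their sum changed by -0.00 ± 0.56 and the LeuCAG sum by -0.20 ± 0.71, against -4.88 ± 0.50 for LeuTAA, -3.75 ± 0.47 for SerGCT and -2.56 ± 0.43 for SeC; 6 of 9 anticodon sums were lower, where 23.1% of features were called lower. As a share of all tRNA counts, LeuCAA made up 1.96% to 7.65% in VsWAT pull-down and 0.323% to 0.549% in VsWAT input, a ratio of the mean shares of 10.3, with no overlap. This was not particular to LeuCAA. The ratio was 8.62 for LeuCAG, 5.96 for SerTGA and, from 31 pull-down counts, 8.92 for SerAGA, also without overlap. For LeuTAA it was 0.385, without overlap. These shares were not tested.

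**Figure D3:**
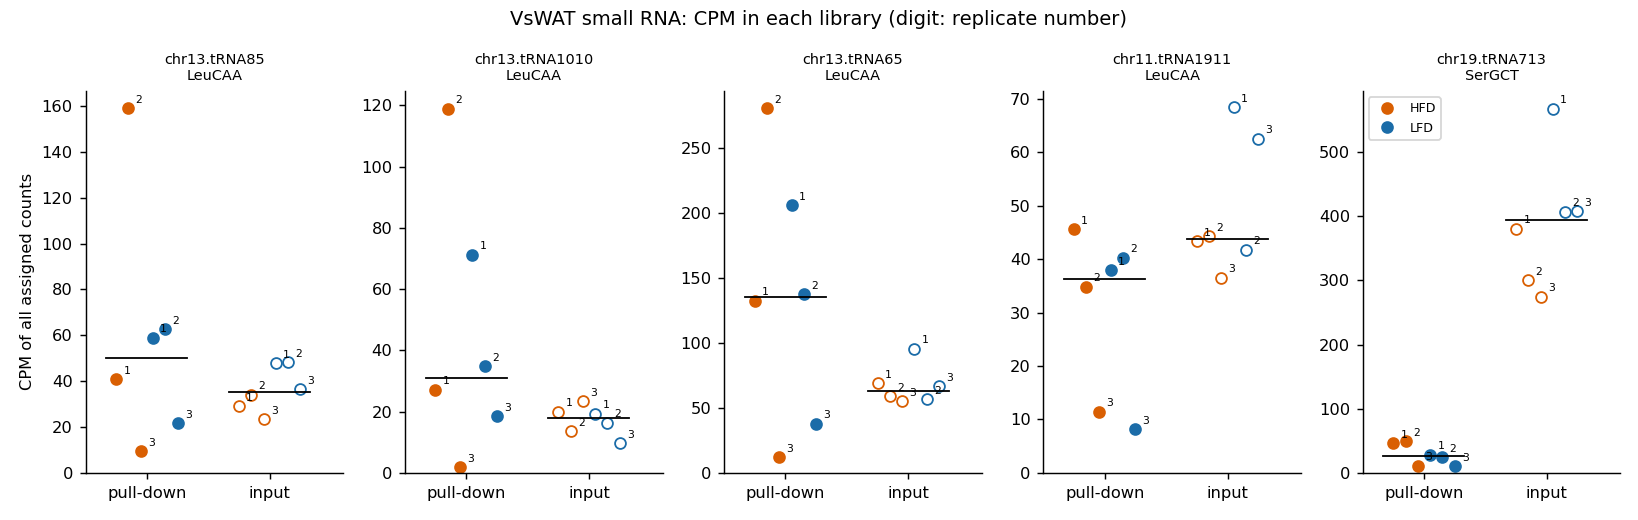
CPM of the 4 LeuCAA loci and of chr19.tRNA713-SerGCT in each VsWAT library (linear axes from 0, digits give the replicate number, bars the median, HFD orange, LFD blue), pull-down filled and left of input. Pull-down of the chromosome 13 LeuCAA loci spreads on both sides of the inputs, up to 281 CPM for chr13.tRNA65-LeuCAA, while every chr19.tRNA713-SerGCT pull-down lies below every input.

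Whether the pull-down effect itself differed between tissues was tested as the difference between the effect in a tissue and that in liver, so the comparisons share the liver libraries. The effect in VsWAT minus that in liver was positive and called at 14 of 28 loci tested and negative at 0, where 4.78% of 11979 features were called higher, and 29 of 149 other tRNA loci were. All 28 estimates were positive, with a median of 2.45, against 0.06 over all features and 1.88 over the other tRNA loci. The largest were 5.18 ± 0.94 for chr13.tRNA85-LeuCAA (adjusted p = 0.00214), 4.22 ± 0.98 for chr13.tRNA1010-LeuCAA (adjusted p = 0.0121) and 4.05 ± 0.89 for chr13.tRNA63-LeuAAG (adjusted p = 0.00844), taking loci with a mean of at least 20 counts. In liver pull-down these loci had 0 to 4, 0 to 10 and 0 to 8 counts per library, in the same order. The sizes of their differences thus rest on few liver counts. All 4 LeuCAA and all 3 LeuTAG loci were among the 14. Some of the 14 had fewer than 10 counts in every liver pull-down library. These were chr13.tRNA85-LeuCAA, chr13.tRNA63-LeuAAG, chr14.tRNA189-LeuAAG, chr14.tRNA709-LeuTAG and chr13.tRNA115-SerGCT. Their effect in liver is set by the inputs and the low pull-down counts. The number of calls and the median over the 28 loci thus describe them and support nothing further. The difference was 0.76 ± 0.55 for chr10.tRNA1326-LeuTAA and 0.93 ± 0.55 for the SeC locus, neither called. For GAS minus liver, 0 of 26 loci were called by edgeR (3 at an unadjusted p under 0.05, 1 by DESeq2), where 14.4% of 11234 features were called in either direction, and the smallest p was that of chr13.tRNA63-LeuAAG at 2.21 ± 0.88 (adjusted p = 0.0942), followed by chr13.tRNA964-LeuCAG at 1.90 ± 0.89 (adjusted p = 0.161).

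Plasma was less settled. Leu loci summed to 1447 to 4597 CPM in plasma pull-down and 2595 to 18020 CPM in plasma input, Ser loci to 1750 to 7806 CPM in pull-down and 2507 to 22607 CPM in input, and the SeC locus to 2280 to 10155 CPM in pull-down and 1620 to 4371 CPM in input. All 3 sums overlapped between pull-down and input. With TMM scaling, 7 of 22 loci tested were lower in plasma pull-down and 0 higher, where 2.91% of 3469 features were called lower, and 17 of 86 other tRNA loci were lower. The 7 were chr19.tRNA713-SerGCT, chr13.tRNA988-SerGCT, the 3 LeuTAG loci chr7.tRNA863-LeuTAG, chr11.tRNA401-LeuTAG and chr14.tRNA709-LeuTAG, chr10.tRNA1326-LeuTAA and chr13.tRNA85-LeuCAA. At chr13.tRNA85-LeuCAA the plasma pull-downs held 0 to 3 counts each. It passed the filter through the inputs alone, so its lower call follows from the filter. Of 9 anticodon sums, 3 were lower, where 2.85% of features were: SerGCT at -6.84 ± 0.72 (adjusted p = 2.07e-15), LeuTAG at -4.90 ± 0.65 (adjusted p = 1.38e-10) and LeuTAA at -3.84 ± 0.82 (adjusted p = 0.000329).

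The serine locus chr19.tRNA713-SerGCT had 198 and 232 CPM in plasma pull-down on HFD and 319.7 and 189 CPM on LFD, and 849.8 and 9136 CPM in plasma input on HFD and 11834 and 652 CPM on LFD. Every pull-down lay below every input, but inputs HFD 2 and LFD 1 were far above the other inputs; the change was -6.80 ± 0.75 (adjusted p = 3.93e-16). The leucine locus chr7.tRNA863-LeuTAG had 399 and 1832 CPM in pull-down on HFD and 151 and 2019 CPM on LFD, and 2039 and 11625 CPM in input on HFD and 13969 and 1464 CPM on LFD. Its groups overlapped, and the same 2 inputs were the high ones (-4.93 ± 0.68, adjusted p = 1.49e-09). The second SerGCT locus, chr2.tRNA1509-SerGCT, had 26.3, 181, 0 and 4.51 CPM in the 4 pull-downs and 379, 6763, 7267 and 398 CPM in the 4 inputs; its change of -9.42 ± 2.58 missed the threshold (adjusted p = 0.14). The calls of chr10.tRNA1326-LeuTAA and chr11.tRNA401-LeuTAG were lost without input HFD 2, and those of chr13.tRNA85-LeuCAA and chr13.tRNA988-SerGCT were each lost without any 1 of 4 libraries, inputs HFD 2 and LFD 1 among them. Without inputs HFD 2 and LFD 1, a run added after the data were seen, 1 locus and 1 anticodon sum were called, and the log2 ratio of the mean CPM sums of pull-down over input became 0.13 for Leu and 0.74 for Ser, against -1.77 and -1.43 with all inputs.

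Some long-arm loci in plasma lay higher in pull-down per assigned count. The SeC locus had 2280 and 10155 CPM in pull-down on HFD and 4821 and 8645 CPM on LFD, and 4371 and 1620 CPM in input on HFD and 4314 and 2182 CPM on LFD; the groups overlapped. Its fitted change was -0.94 ± 0.61 with TMM scaling (adjusted p = 0.549) and 1.05 when libraries were scaled to their totals, so its direction depends on the scaling. The serine locus chr10.tRNA698-SerCGA had 1062 and 3619 CPM in pull-down on HFD and 717 and 2655 CPM on LFD, and 134 and 512 CPM in input on HFD and 633 and 401 CPM on LFD. Here every pull-down lay above every input in CPM, while the fitted change was 0.18 ± 0.77 (adjusted p = 0.959). The same was seen at chr13.tRNA65-LeuCAA, with 48.3 to 737 CPM in pull-down and 15.3 to 44.7 CPM in input (1.41 ± 1.26, adjusted p = 0.721). Scaling to totals moved the median change of all features in plasma to 2.04, against 0.10 with TMM, and in liver, VsWAT and GAS to 1.22, 0.64 and 0.96, against 0.10, 0.01 and 0.06. The median over the loci tested was then -3.60 in liver, -1.88 in VsWAT, -3.57 in GAS and -0.94 in plasma.

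**Figure D4:**
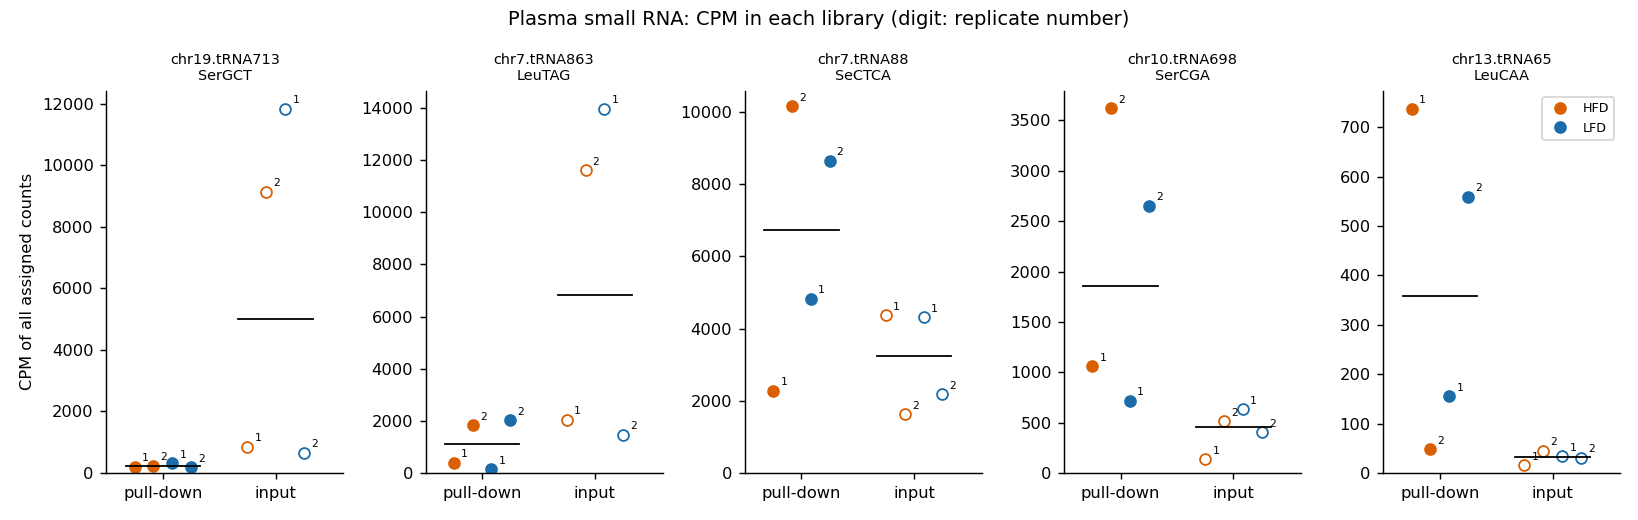
CPM of 5 loci in each plasma library (linear axes from 0, digits give the replicate number, bars the median, HFD orange, LFD blue), pull-down filled and left of input. Inputs HFD 2 and LFD 1 carry the high values of chr19.tRNA713-SerGCT (9136 and 11834 CPM) and chr7.tRNA863-LeuTAG, whereas all 4 pull-downs exceed all 4 inputs for chr10.tRNA698-SerCGA and chr13.tRNA65-LeuCAA.

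Set against the effect in liver, the pull-down effect in plasma was called at 4 of 28 loci, 3 higher and 1 lower, where 1.69% of 8855 features were called higher and 24.5% lower, and the median over all features was -1.35. The number called was 8 with DESeq2, 8 without plasma inputs HFD 2 and LFD 1, 12 with total-count scaling and 2 with the replicate block. Higher were chr13.tRNA63-LeuAAG at 5.30 ± 1.66 (adjusted p = 0.0243), chr13.tRNA65-LeuCAA at 3.86 ± 0.97 (adjusted p = 0.0061) and chr10.tRNA698-SerCGA at 3.83 ± 0.96 (adjusted p = 0.00588). Lower was chr2.tRNA1509-SerGCT at -4.60 ± 1.66 (adjusted p = 0.0492), a call that was lost in 16 of 19 runs that left out 1 library. The call for chr13.tRNA63-LeuAAG was lost without plasma pull-down HFD 2 and without plasma pull-down LFD 2. In liver pull-down that locus had 0 to 8 counts per library, so its call and the size of its difference rest on few liver counts.

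The second question was how the input levels of these tRNAs compare between tissues. Against liver input, 21 of 26 loci tested were lower and 1 higher in VsWAT input, where 31.4% of 8718 features were called lower and 32.9% higher, with a median of -1.21, against 0.05 over all features and -1.34 over the other tRNA loci. The sums differed from these medians. The other tRNA loci averaged 38733 CPM in VsWAT input and 18642 CPM in liver input. The Leu, Ser and SeC loci together averaged 4270 and 6743 CPM, and both sums overlapped between the tissues. Their share of tRNA counts was 8.70% to 12.2% in VsWAT input and 25.4% to 29.7% in liver input, without overlap. These sums and shares were not tested. The UCA-decoding chr10.tRNA1105-SerTGA had 19.7 to 82.9 CPM in VsWAT input and 108 to 286 CPM in liver input, a change of -3.12 ± 0.35 (adjusted p = 3.58e-07). The groups did not overlap. It was followed by chr11.tRNA1911-LeuCAA at -2.86 ± 0.27 and chr11.tRNA401-LeuTAG at -2.35 ± 0.28. Scaled to totals, 14 loci were called in this comparison, and the median of all features was 0.90. The 1 higher locus was chr13.tRNA988-SerGCT at 1.69, with 1 to 19 counts per liver input library. It passed the filter through the VsWAT inputs, so its higher call follows from the filter. Among the lower loci, chr13.tRNA62-LeuAAG had 1 to 12 counts per VsWAT input library and passed through the liver inputs.

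In GAS input 12 of 25 loci were lower and 3 higher than in liver input, where 31.4% of 7237 features were called lower and 32.4% higher. The 3 higher loci were chr11.tRNA400-SerCGA at 1.54 ± 0.33 (adjusted p = 0.000374), chr19.tRNA713-SerGCT at 0.99 ± 0.27 (adjusted p = 0.00313) and chr14.tRNA709-LeuTAG at 0.84 ± 0.27 (adjusted p = 0.00877). Lower were, among others, chr13.tRNA63-LeuAAG at -2.49 ± 0.26 (adjusted p = 2.19e-08), with 14.7 to 32.1 CPM in GAS input and 46.5 to 160.2 CPM in liver input, and chr10.tRNA1326-LeuTAA at -1.51 ± 0.29 (adjusted p = 0.000121). Leu and Ser loci were each called in both directions in this comparison. Of the 12 lower loci, chr13.tRNA62-LeuAAG had 0 to 9 counts per GAS input library. It passed the filter through the liver inputs alone, so its lower call follows from the filter.

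In plasma input 16 of 26 loci were higher and 1 lower than in liver input, where 24.2% of 5874 features were called higher and 34.4% lower, and 66 of 118 other tRNA loci were higher. These counts rest on plasma inputs HFD 2 and LFD 1: without them 6 loci were higher and 9 lower, without HFD 2 alone 10 and 4, and without LFD 1 alone 10 and 3. With total-count scaling of all libraries 10 were higher and 5 lower. The largest changes with all inputs were those of the SerGCT loci, with 7.87 ± 1.03 for chr13.tRNA988-SerGCT, 6.59 ± 0.98 for chr2.tRNA1509-SerGCT and 5.67 ± 0.90 for chr19.tRNA713-SerGCT (largest adjusted p of these = 7.53e-05). The last had 652 to 11834 CPM in plasma input and 127 to 436 CPM in liver input, without overlap. At chr13.tRNA988-SerGCT the liver inputs held 0.88 to 5.27 CPM, from 1 to 19 counts per library. That locus passed the filter through the plasma inputs, so its higher call follows from the filter and its size rests on few liver counts. The locus chrX.tRNA463-LeuTAA, also called higher, had 2 to 17 counts per liver input library and passed through the plasma inputs too. The 1 lower locus, chr13.tRNA964-LeuCAG, had 0 to 1 counts per plasma input library. It passed through the liver inputs alone, so its lower call follows from the filter. Without plasma inputs HFD 2 and LFD 1 the changes were 4.19 for chr13.tRNA988-SerGCT, 2.35 for chr2.tRNA1509-SerGCT and 1.86 for chr19.tRNA713-SerGCT (largest adjusted p = 0.00238). Plasma was extracted with another reagent than the tissues and after a spin filter, and tissue and extraction cannot be told apart in this comparison.

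The third question was whether HFD changed these tRNAs. A call was made in 1 of 8 sets of libraries. In VsWAT input 1 of 26 loci tested was lower on HFD and 0 higher, where 0.125% of 7987 features were called lower and 0.0876% higher. This was the UUA-decoding chr19.tRNA640-LeuTAA, with 68.3, 64.7 and 54.3 CPM on HFD and 159, 134 and 95.1 CPM on LFD. The diets did not overlap, and the change was -1.10 ± 0.18 (adjusted p = 0.0189). Of the 26 loci 21 had a negative estimate and 14 an unadjusted p under 0.05, with a median of -0.61, against -0.00 over all features and -0.31 over the other tRNA loci. The unadjusted p were counted for these loci only, so the 14 cannot be set against a share of all features. The Leu sum was 1549 to 1610 CPM on HFD and 2092 to 3620 CPM on LFD, the SeC sum 1027 to 1250 CPM on HFD and 1390 to 2003 CPM on LFD, and neither overlapped. The call of chr19.tRNA640-LeuTAA rests on few libraries: 0 loci were called when HFD 1, HFD 2 or HFD 3 was left out, 6 without LFD 2, and 0 when the near-identical inputs HFD 1 and 2 were summed into 1, with total-count scaling or with the dispersion of all 4 groups. The other tRNA loci summed to 22187 to 33508 CPM on HFD and 44742 to 53862 CPM on LFD in the same inputs, also without overlap, and the mean share of tRNA counts on Leu loci was 4.98% on HFD and 4.81% on LFD.

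In GAS pull-down all 10 loci tested had negative estimates on HFD, but 0 were called by edgeR (6 at an unadjusted p under 0.05, 2 called by DESeq2), where 0.673% of 9058 features were called lower and 0.0442% higher. These shares are at the adjusted p, and no share of all features stands beside the 6. The SeC locus had 178, 157 and 122 CPM on HFD and 279.5, 297 and 297 CPM on LFD, which did not overlap, with a change of -0.88 ± 0.20 (adjusted p = 0.0657). The LeuTAG locus chr7.tRNA863-LeuTAG had 8.59, 11.6 and 9.25 CPM on HFD and 21.2, 26.9 and 65.7 CPM on LFD, also without overlap (-1.89 ± 0.45, adjusted p = 0.101). The Leu sum was 34.2 to 67.4 CPM on HFD and 73.0 to 360.2 CPM on LFD. The other tRNA loci summed to 1106 to 1539 CPM on HFD and 1898 to 5669 CPM on LFD, which did not overlap, and the 28 of them tested had a median change of -1.22, against -1.59 for the 10 loci, with 0 called. In VsWAT pull-down all 22 loci tested had positive estimates on HFD and 0 were called, also at an unadjusted p under 0.05 or by DESeq2, where 0.0187% of 10712 features were called higher; the median over the loci was 0.52, against 0.58 over the other tRNA loci.

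**Figure D5:**
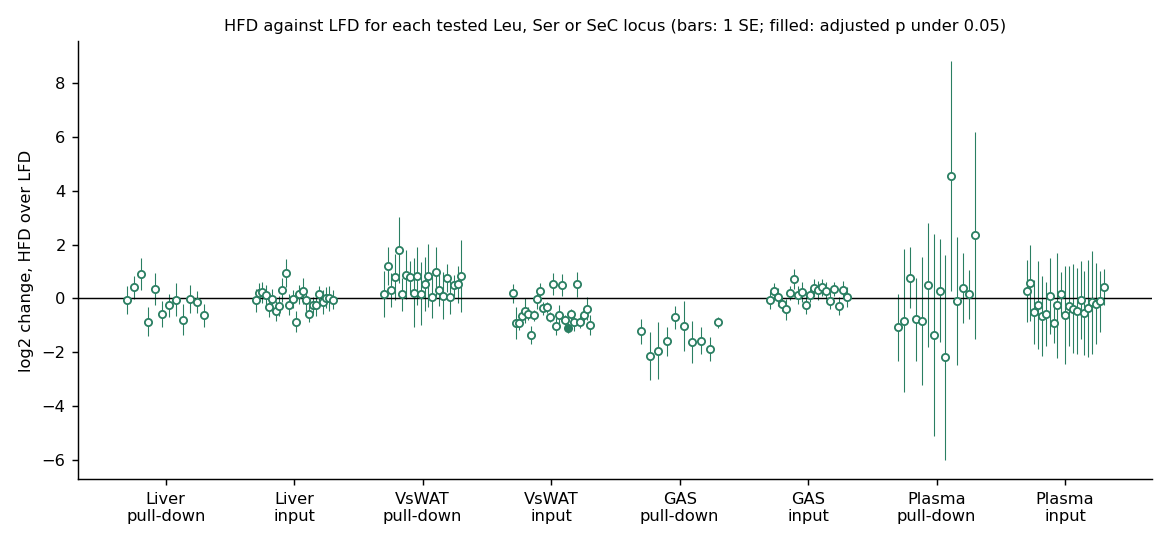
Log2 change of HFD over LFD with its SE for every Leu, Ser or SeC locus tested in each of the 8 sets of small RNA libraries, pull-down left of input; the filled point passed an adjusted p under 0.05. The GAS pull-down points all lie below 0 and the VsWAT pull-down points all above 0, and chr19.tRNA640-LeuTAA in VsWAT input, at -1.10, is the filled one.

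In liver 0 of 12 loci tested in pull-down and 0 of 24 in input were called between diets (0 and 1 at an unadjusted p under 0.05), where 0.0545% and 0.111% of features were called in either direction. In GAS input 0 of 20 were called (0 at an unadjusted p under 0.05), where 0.276% of features were. In plasma 0 of 14 loci in pull-down and 0 of 21 in input were called (0 and 0 at an unadjusted p under 0.05), where 0% of the features were called in each. DESeq2 called 0 loci in all 5 of these sets. The interaction, the difference between diets in the pull-down effect, was called at 0 loci by edgeR in liver (25 tested, 0 at an unadjusted p under 0.05), VsWAT (26 and 3), GAS (24 and 13) and plasma (22 and 2), where 0% of all features were called in each of the 4. No share of all features at an unadjusted p was taken, so the 13 in GAS have no background. DESeq2 called 2 loci for the interaction in GAS and 0 in the other 3 tissues. The smallest p in GAS were those of chr1.tRNA698-LeuCAG at -3.69 ± 0.98 (adjusted p = 0.699) and of the SeC locus at -1.28 ± 0.39 (adjusted p = 0.89). The estimate of chr1.tRNA698-LeuCAG rests on few counts, with 0, 1 and 0 in GAS pull-down on HFD and 7, 3 and 8 on LFD.

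Libraries of mRNA held almost none of these RNAs. Over the 22 mRNA libraries the 56 loci had 200 counts in all, 33 had none, and 73 counts fell on chr13.tRNA964-LeuCAG. No locus passed the filter on low counts in any comparison of liver or kidney mRNA, so none was tested there.

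Genes that make, charge or process these tRNAs were followed in the same small RNA libraries, where their rows count fragments. Over all features, 27.1% were called higher and 28.4% lower in liver pull-down, 21.3% and 23.2% in VsWAT and 27.9% and 26.5% in GAS, and the list counts that follow are to be read against these shares. Of the selenocysteine machinery, a list of 8 genes, 4 of 6 tested were higher in liver pull-down and 0 lower, 3 of 7 higher in VsWAT and 4 of 7 higher in GAS. Sephs2, which makes the selenium donor, changed by 1.09 ± 0.19 in liver, 1.53 ± 0.22 in VsWAT and 1.19 ± 0.32 in GAS (largest adjusted p = 0.00353). Of 14 modification enzymes, 5 of 10 tested were higher in liver, 3 of 12 in VsWAT and 4 of 9 in GAS, with 0 lower in each. They included Alkbh8, which modifies the wobble uridine of the selenocysteine tRNA among others, at 1.48 ± 0.21, 1.35 ± 0.23 and 1.54 ± 0.27 in the 3 tissues. Of 22 genes of the RNA polymerase III machinery, 8 of 18 were higher and 1 lower in liver, 7 of 21 higher in VsWAT and 5 of 20 higher in GAS. Of 20 processing and export genes, 7 of 11, 5 of 17 and 8 of 13 were higher in liver, VsWAT and GAS, and 0 were lower.

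The synthetase genes went both ways. Lars, the cytosolic leucyl-tRNA synthetase, was higher in liver pull-down (1.12 ± 0.19, adjusted p = 6.72e-05), and its changes of 0.17 ± 0.18 in VsWAT and 0.25 ± 0.19 in GAS missed the threshold. Lars2, the mitochondrial enzyme, was lower in pull-down of liver (-1.94 ± 0.34), VsWAT (-2.36 ± 0.23), GAS (-2.80 ± 0.22) and plasma (-1.85 ± 0.53; largest adjusted p = 0.0201). Sars, the cytosolic seryl-tRNA synthetase, was lower in GAS at -0.66 ± 0.23 (adjusted p = 0.0208), while its 0.26 ± 0.22 in liver and -0.33 ± 0.19 in VsWAT were not called. On the CPM scale some of these directions turn. Sars averaged 19.2 CPM in GAS pull-down and 16.2 CPM in GAS input, and 38.5 CPM in VsWAT pull-down and 30.9 CPM in VsWAT input. Lars2 averaged 14895 CPM in plasma pull-down and 13980 CPM in plasma input. The level of Lars2 was far above that of Lars in the tissues. In liver input Lars2 averaged 78802 CPM and Lars 14.4 CPM. The values were 51832 and 31.2 CPM in VsWAT input and 54510 and 16.6 CPM in GAS input. What RNA the Lars2 row counts was not tested, so its lower calls are not read as a change of synthetase mRNA. Of 13 genes of tRNA cleavage and its control, 1 of 5 tested was higher and 1 lower in liver, 3 of 6 lower in VsWAT and 2 of 4 lower in GAS. They included Slfn5, a Schlafen gene, at -0.68 ± 0.20 in VsWAT and -1.04 ± 0.22 in GAS, and Dicer1 at 0.99 ± 0.21 in liver. On the CPM scale Slfn5 changed little. It averaged 82.4 CPM in VsWAT pull-down and 83.9 CPM in VsWAT input, and 17.3 and 19.1 CPM in GAS. In plasma 1 to 4 genes of each of these lists were tested, and Lars2 was the single call.

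Mitochondrial leucine and serine tRNAs also have 4 rows under gene symbols, outside the 56 loci. Of these mt-Tl2 and mt-Ts2 had counts, while mt-Tl1 and mt-Ts1 had 0 counts in all small RNA libraries. In liver pull-down both were lower, at -5.18 ± 0.62 for mt-Tl2 and -3.64 ± 0.74 for mt-Ts2 (largest adjusted p = 0.00205), and in GAS pull-down at -4.17 ± 0.85 and -2.75 ± 0.76 (largest adjusted p = 0.012). In VsWAT neither was called, at -0.76 ± 0.47 for mt-Tl2 and 0.73 ± 0.58 for mt-Ts2. The VsWAT effect minus the liver effect was 4.35 ± 0.72 for mt-Tl2 and 4.33 ± 0.91 for mt-Ts2 (largest adjusted p = 0.00577).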

How the data were processed

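Per the labels' protocols, tissue RNA was isolated with NucleoZOL, plasma RNA with Tri reagent BD after passing a spin filter, and small RNA was prepared with the CATS kit for single-end reads of 75 bp. The authors deposited raw counts per gene or tRNA locus, made with STAR and HTSeq on mm10 per the submitters' processing notes, which give no versions. Whether counting used strand is not given in the sources used here. The 12 total RNA libraries hold 0 tRNA rows and were not used, which left 65 of 77 libraries. No deposited column of another series was met (0).

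Features were tested with edgeR 4.0.16 (R 4.3.3) by its robust quasi-likelihood test, after TMM scaling and after filterByExpr at a minimum count of 10, on the whole table, 2-sided, with diet as a term in pull-down comparisons, and adjusted by Benjamini and Hochberg over all features at 0.05. SE is the absolute log2 change over the square root of F. Counts at an unadjusted p under 0.05 were taken for the Leu, Ser and SeC loci only, without a share over all features. CPM use all assigned counts. Named loci are the SeC loci, the 8 loci of highest input count, the 4 largest called changes each way per isotype and pull-down comparison with a mean of at least 20 counts, and the 3 largest each way (or 2 smallest p where none was called) in other comparisons; for other genes, up to 3 per list of smallest p. Other loci named were chosen after their values were seen. The loci and lists were chosen with earlier results of these data known.

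Alternatives were DESeq2 1.42.0, its size factors, total-count scaling, no filter, dispersion estimated over all 4 groups, a block for the replicate number, and fits without each library in turn; sums were also taken after TMM scaling and as a share of tRNA counts. The numbers were read as pairs where the deviations of every pair from their group means correlated over 0.1 with at least 3 pairs, which held between input and pull-down in GAS (0.223 to 0.426 on HFD and 0.357 to 0.420 on LFD). In VsWAT the values were 0.309 to 0.383 on LFD but 0.0448 to 0.215 on HFD. Liver mRNA pull-down also passed between the diets (0.153 to 0.162), so passing does not show that a number marks an animal. On simulated data with 100 features each changed 2-fold and 4-fold, edgeR recovered 71% and 98% in liver pull-down against input (8401 features), 60% and 99% in VsWAT input between diets (7987 features), and 0% and 1% in plasma pull-down against input (3469 features), so a missed call in plasma carries little information. RefSeq genes were matched by chromosome and anticodon where both were unique.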

Additional observations from a re-analysis of the deposited data

Results flagged for a closer look

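The pull-down effect differed from that of liver at 14 loci in VsWAT by the test of the difference itself. Some of the 14 had fewer than 10 counts in every liver pull-down library, so the number called describes the loci and supports nothing further. The 3 largest differences among loci with a mean of at least 20 counts, VsWAT minus liver, were 5.18 for chr13.tRNA85-LeuCAA, 4.22 for chr13.tRNA1010-LeuCAA and 4.05 for chr13.tRNA63-LeuAAG. All 3 loci had at most 10 counts in any liver pull-down library, so the sizes of these differences rest on few liver counts. Hepatocyte markers, at 58.8 to 2323 CPM in VsWAT pull-down and 42341 to 53369 CPM in liver pull-down, are given beside these values, and their part in the difference was not tested.

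In plasma the pull-down effect differed from that of liver at 4 loci by the same kind of test. Plasma minus liver was 5.30 for chr13.tRNA63-LeuAAG, 3.86 for chr13.tRNA65-LeuCAA, 3.83 for chr10.tRNA698-SerCGA and -4.60 for chr2.tRNA1509-SerGCT. The value for chr13.tRNA63-LeuAAG rests on 0 to 8 counts per liver pull-down library. Both sets of differences use the same liver libraries. Inputs HFD 2 and LFD 1 of plasma, which resembled each other more than the other plasma inputs, held 6763 and 7267 CPM of chr2.tRNA1509-SerGCT, against 379 and 398 CPM in the other 2 inputs.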

How the results depend on the processing

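The loci lower in pull-down of liver, VsWAT and GAS kept their counts within 1.5 times under every alternative run, and leaving out 1 library gave 24 to 26 loci in liver, 19 to 21 in VsWAT and 23 to 25 in GAS. In plasma that range was 4 to 10, with 4 without input HFD 2, and without inputs HFD 2 and LFD 1, an alternative chosen after seeing the data, 1 locus and 1 anticodon sum were called. Plasma minus liver gave 3 to 6 loci without 1 library, 8 without those 2 inputs, 8 with DESeq2 and 12 with total-count scaling. VsWAT minus liver gave 11 to 18 and GAS minus liver 0 to 1 without 1 library, 1 with DESeq2 and 2 without the filter. VsWAT against liver input gave 14 loci with total-count scaling. Plasma against liver input gave 15 without inputs HFD 2 and LFD 1, 6 higher and 9 lower, against 16 higher and 1 lower with all inputs.

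For diet, VsWAT input gave 3 loci with DESeq2, 8 without the filter, 0 with total-count scaling, 0 with the dispersion of all 4 groups, 0 with near-identical libraries summed (also chosen after seeing the data) and 0 to 6 without 1 library. GAS pull-down gave 2 with DESeq2, 1 with total-count scaling, 5 without the filter, 3 with the dispersion of all 4 groups and 0 to 2 without 1 library. Plasma input gave 0 to 4 without 1 library, the 4 when LFD 1 was left out; with inputs HFD 2 and LFD 1 both left out it could not be fitted. The interaction gave 2 loci in GAS with DESeq2, 3 in GAS and 1 in VsWAT without the filter. The cause of these shifts was not tested.

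With the replicate number as a block, which the labels do not tie to an animal, 2 loci were called between diets in VsWAT input, 1 in GAS pull-down, 1 for GAS minus liver and 2 for plasma minus liver. In GAS, where the numbers were taken to pair input with pull-down, the block left 23 loci called. With crossed numbers in plasma, added after seeing the data, 8 loci and 4 anticodon sums were called in pull-down against input.

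The log2 ratios of pull-down over input sums after TMM scaling were -5.20 for Leu, -5.06 for Ser and -3.59 for SeC in liver, -5.43 for Ser and -3.83 for SeC in GAS, and -3.99 for Leu, -3.64 for Ser and -0.94 for SeC in plasma, where the SeC ratio of CPM was 1.05. As a share of all nuclear tRNA counts they were -0.97, -0.83 and 0.58 for Leu, Ser and SeC in liver, 0.72, 0.20 and 0.89 in VsWAT and -0.60, -1.10 and 0.66 in GAS. On the unscaled CPM, leaving out plasma inputs HFD 2 and LFD 1 gave 0.13 for Leu and 0.74 for Ser.

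Among anticodon sums, LeuCAA in VsWAT was 0.016 with DESeq2, 0.011 with its size factors, 0.66 with total-count scaling, 0.11 without the filter and -0.45 to 0.26 without 1 library, and LeuCAG was 0.45 with total-count scaling and -0.71 to 0.13 without 1 library. Total-count scaling in plasma gave 0.85 for LeuAAG, 1.21 for LeuCAA, 1.20 for LeuCAG, 1.05 for SeC and 1.66 for SerCGA, and leaving out inputs HFD 2 and LFD 1 gave 1.81 for LeuAAG, 0.61 for LeuCAA and 0.17 for SerCGA. Leaving out 1 library gave -1.11 to 0.33 for chr10.tRNA698-SerCGA in plasma pull-down against input, -2.60 to 0.95 for chr10.tRNA1105-SerTGA between diets in plasma pull-down and -1.50 to 0.57 for chr13.tRNA1010-LeuCAA between diets in plasma input. Plasma libraries had the lowest totals, from 221875 counts.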
